A study of Rattus norvegicus with 24 samples.

Results

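Gad1 and Gad2 are the 2 genes described here, out of 32662 gene IDs listed in every count table. They were chosen by name and ID, ENSRNOG00000000007 for Gad1 and ENSRNOG00000018200 for Gad2. The rule used no measured value, though earlier results of these data were known. Both genes had counts in all 24 libraries. Poly-A RNA was sequenced from amygdala and dorsal raphe of 60-day-old rats of 2 lines. The high-responder and low-responder lines were selectively bred for their response to novelty, and no treatment is given in the labels. Each pairing of line and region had 6 libraries. With 1 line bred for each response and no unselected line among the libraries used here, a line difference cannot be tied to the response itself.

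Gad1 and Gad2 encode the glutamate decarboxylases GAD67 and GAD65, which make the inhibitory transmitter GABA from glutamate. GAD67 is found through the whole neuron and is known for supplying most of the basal GABA of the brain. GAD65 is concentrated at nerve endings, attached to synaptic vesicles, and is thought to supply GABA on demand. The amygdala holds local inhibitory neurons and, in its central part, many GABA projection neurons. The dorsal raphe holds GABA neurons beside its serotonin neurons.

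The start regions of both genes are shown because the 2 transcripts followed each other from library to library, as described further on. Each window runs from 250 bases before to 50 bases after the start in the RefSeq table of the assembly GRCr8. The Gad1 window is chr3:75777202-75777501 and the Gad2 window is chr17:89671468-89671767, both on the + strand. The capitals mark TATAAA and GGGCGG on either strand and the longest run of letters found in both windows, which was looked for after the sequences were seen.
Gad1: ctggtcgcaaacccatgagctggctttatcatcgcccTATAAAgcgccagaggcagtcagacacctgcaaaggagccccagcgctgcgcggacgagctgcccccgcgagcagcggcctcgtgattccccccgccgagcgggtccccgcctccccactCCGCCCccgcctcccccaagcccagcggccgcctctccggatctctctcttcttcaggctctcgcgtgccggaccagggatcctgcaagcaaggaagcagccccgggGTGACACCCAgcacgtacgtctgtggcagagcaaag
Gad2: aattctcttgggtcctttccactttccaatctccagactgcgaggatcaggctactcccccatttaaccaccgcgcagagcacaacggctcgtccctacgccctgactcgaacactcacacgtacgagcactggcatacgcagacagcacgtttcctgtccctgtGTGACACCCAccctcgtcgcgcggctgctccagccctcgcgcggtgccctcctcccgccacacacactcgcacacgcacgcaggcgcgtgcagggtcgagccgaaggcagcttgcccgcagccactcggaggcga
The longest shared run is GTGACACCCA, 10 bases long, which began at base 15 after the start in Gad1 and at base -85 in Gad2. It was present in 30 of 33469 windows of the same length (0.0896%, both strands). This share is of a run picked because both windows hold it, so it does not measure how unusual the match is. How often 2 windows share some run this long was not tested. TATAAA was matched 1 time in Gad1, at base -213, and 0 times in Gad2, and 14.2% of all windows hold it. GGGCGG was matched 1 time in Gad1, at base -93 on the opposite strand, and 0 times in Gad2, against 33.1% of all windows. CANNTG was matched 1 time in Gad1 (base -189) and 0 times in Gad2, against 72.1% of all windows. TGACG (21.2% of all windows) and TAATTA (5.36%) were matched in neither. The motifs do not overlap each other in these windows. Both windows were rich in G and C, at 67.7% for Gad1 and 63.7% for Gad2 against a median of 51.7%. They held 26 and 29 CG pairs, against a median of 7.

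Both transcripts were abundant in every library. Counts ranged from 2627 to 9983 for Gad1 and from 2440 to 9593 for Gad2, in libraries of 9232983 to 20194601 counts. CPM is the usual depth-scaled count, with library sizes adjusted by TMM over the 24 libraries. With a mean of 386.0 CPM Gad1 ranked 326th by level, and Gad2, at 385.6 CPM, ranked 327th. CPM is not scaled by transcript length, so these values do not say which of the 2 genes has more transcripts. Around the group means the SD of log2 CPM was 0.26 for Gad1 and 0.39 for Gad2, against 0.02 from counting alone. Counting error was thus a small part of the spread between libraries. Among the 441 genes within 1.5-fold of Gad2's level, 94.6% had a smaller SD, and among the 440 near Gad1 80.7% did.

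In high-responder amygdala Gad1 ranged from 307.5 to 534.3 CPM, with a median of 438.7 and a mean of 431.8 ± 81.6 (SD, n = 6). In low-responder amygdala it ranged from 342.3 to 495.6 CPM, with a median of 359.1 and a mean of 383.0 ± 58.4. The lowest Gad1 value of the amygdala was in a high-responder library, replicate 2, and the lines overlapped widely. High-responder dorsal raphe ranged from 291.2 to 418.8 CPM, with a median of 382.5 and a mean of 366.8 ± 58.8. In low-responder dorsal raphe Gad1 ranged from 280.6 to 511.9 CPM, with a median of 343.6 and a mean of 362.2 ± 81.8. The order of the Gad1 means was high-responder amygdala, low-responder amygdala, high-responder dorsal raphe, low-responder dorsal raphe, and each step was smaller than the SD of either neighbour.

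Gad2 was ordered differently. Its highest mean, 424.0 ± 125.3 CPM (SD, n = 6), was in low-responder dorsal raphe, with a range from 258.8 to 601.7 and a median of 416.1. High-responder dorsal raphe stood at 396.2 ± 106.9 CPM, from 283.6 to 560.0 with a median of 381.7. High-responder amygdala stood at 395.4 ± 98.4 CPM, from 235.0 to 476.1 with a median of 437.7. The lowest mean, 326.6 ± 70.4 CPM, was in low-responder amygdala, from 254.6 to 435.6 with a median of 319.2. No step between neighbours in this order was larger than the SD of either neighbour. All 4 groups overlapped for both genes, as the plot of levels by library shows.

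**Figure D1:**
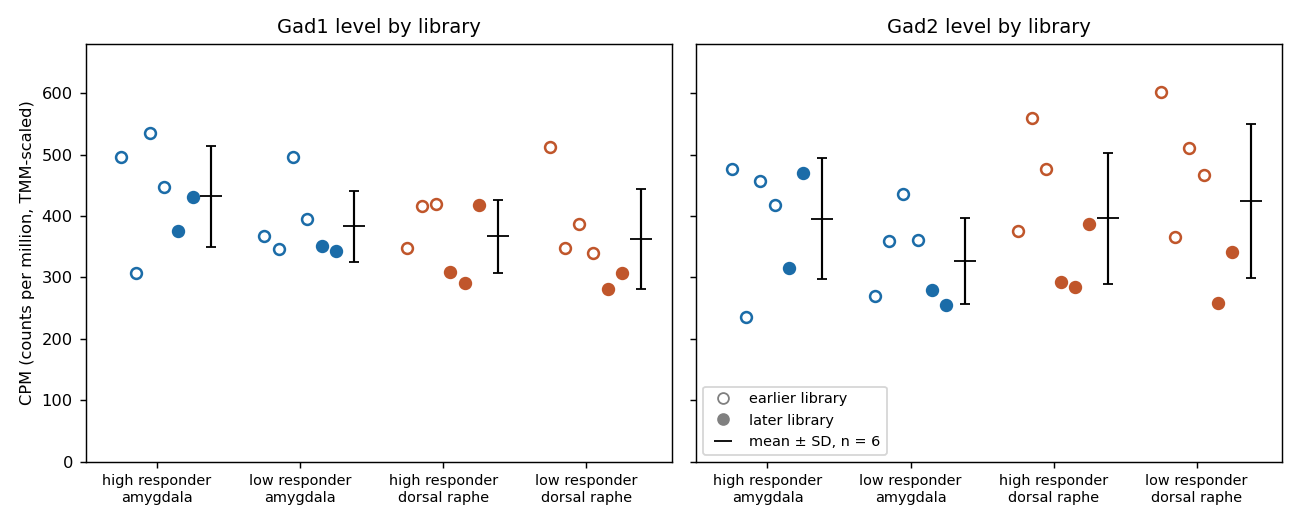
Levels of Gad1 (left) and Gad2 (right) in CPM for each of the 24 libraries, by line and region, with the mean and SD of 6 libraries beside each group. Open circles are earlier and filled circles later libraries by library number. The groups overlap, and in the dorsal raphe 4 of the 5 later libraries lie below all 7 earlier ones for each gene.

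Region was the comparison in which most genes of the series moved. Of 14977 genes tested, 65.8% passed the threshold (edgeR's quasi-likelihood test, Benjamini-Hochberg adjusted p under 0.05), yet neither Gad1 nor Gad2 did. Gad1 had a log2 fold change of 0.16 in amygdala over dorsal raphe (SE 0.10, 95% interval -0.05 to 0.37, edgeR adjusted p = 0.174). Gad2 had the opposite sign, at -0.19 (SE 0.15, 95% interval -0.49 to 0.11, edgeR adjusted p = 0.256). Differences of larger size were found for 75.0% of the genes in the case of Gad1 and for 70.4% in the case of Gad2. Bulk RNA does not tell fewer GABA neurons apart from less of a transcript per neuron.

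For Gad2 the region result depended on which libraries were compared. The library numbers carried in the header lines of the deposited tables break within each group, and libraries after the first break are called later here. In the earlier libraries alone Gad2 had a log2 fold change of -0.34 (edgeR adjusted p = 0.0661), and in the later ones alone 0.07 (0.697). With a term for later libraries in each region, fitted to all libraries, the Gad2 value tested was again that of the earlier libraries. It was -0.35 and passed (edgeR adjusted p = 0.0453), but it is not a difference adjusted for library order. Over all libraries, limma voom with quality weights gave -0.36 for Gad2 (adjusted p = 0.00664). For Gad1 the earlier libraries gave 0.10 (edgeR adjusted p = 0.489) and the later ones 0.25 (0.0732). Leaving out low-responder dorsal raphe replicate 1, the library highest in Gad1 there, gave 0.22 with an edgeR adjusted p of 0.0400.

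Within each line neither gene passed between the regions. In high responders 51.5% of genes passed, and Gad1 stood at 0.24 (SE 0.14, edgeR adjusted p = 0.176) and Gad2 at 0.00 (SE 0.21, edgeR adjusted p = 0.992). In low responders 54.5% passed, with Gad1 at 0.08 (SE 0.14, edgeR adjusted p = 0.659) and Gad2 at -0.38 (SE 0.21, edgeR adjusted p = 0.127). This Gad2 value passed in low responders with limma voom (-0.63, adjusted p = 0.00142) and without low-responder dorsal raphe replicate 5 (-0.48, edgeR adjusted p = 0.0456). The fit with the term for later libraries, whose region value is that of the earlier libraries, gave -0.49 (edgeR adjusted p = 0.0273).

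**Figure D2:**
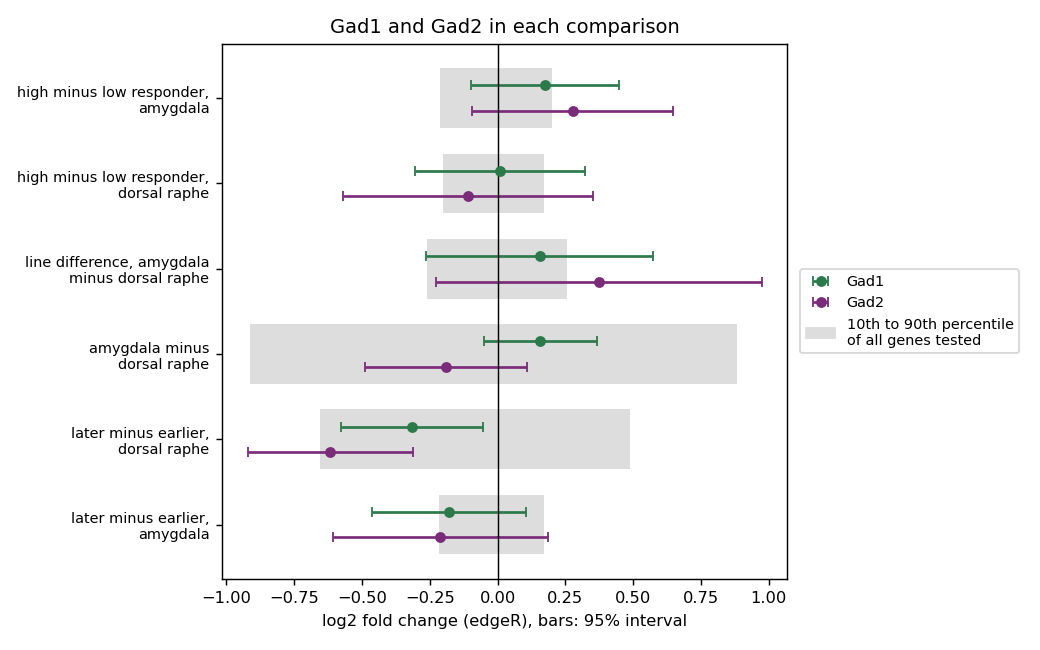
Log2 fold change of Gad1 and Gad2 in 6 comparisons with 95% intervals (edgeR), over the range from the 10th to the 90th percentile of all genes tested in grey. Both intervals lie below 0 for later against earlier dorsal raphe libraries, at -0.32 and -0.62, and include 0 in the other 5 comparisons.

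The lines were compared to ask whether GABA synthesis transcripts differ between rats bred for high and low novelty response. In the amygdala 0.0210% of 14265 genes passed, and neither gene was among them. Gad1 had a log2 fold change of 0.17 in high over low responders (SE 0.13, 95% interval -0.10 to 0.45, edgeR adjusted p = 0.764). Gad2 had 0.28 (SE 0.17, 95% interval -0.09 to 0.65, edgeR adjusted p = 0.722). With limma voom and quality weights the differences were larger, at 0.27 for Gad1 and 0.41 for Gad2, and neither passed (limma adjusted p = 0.107 and 0.112). High-responder libraries lay above the low-responder median in 5 of 6 cases for Gad1 and in 4 of 6 for Gad2. In the 2 later libraries per line the Gad2 difference was 0.56 (edgeR adjusted p = 0.249), against 0.15 in the 4 earlier ones (0.984). The Gad1 differences were 0.21 (0.428) and 0.15 (0.984).

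The amygdala libraries numbered 3 stood apart in both lines. Their 10 most counted IDs took 3.07% of the counts in the high-responder and 1.99% in the low-responder library, against 5.65% to 7.52% in the other 10. These 2 libraries also held the highest Gad1 value of their groups, 534.3 and 495.6 CPM. Without them the line difference was 0.19 for Gad1 (edgeR adjusted p = 0.561) and 0.33 for Gad2 (edgeR adjusted p = 0.547), and the region difference was 0.08 and -0.26 (edgeR adjusted p = 0.464 and 0.147).

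In the dorsal raphe 0.0625% of 14390 genes passed between the lines. Gad1 stood at a log2 fold change of 0.01 (SE 0.14, 95% interval -0.30 to 0.32) and Gad2 at -0.11 (SE 0.21, 95% interval -0.57 to 0.35), both with an edgeR adjusted p of 0.999. Within the earlier libraries the values were -0.01 and -0.05, and within the later ones 0.21 and 0.10. High-responder dorsal raphe replicate 1 was low in ENSRNOG00000003476, an ID at no more than 1.51 CPM in any amygdala library, at 58.1 CPM against 303.4 to 607.5 CPM in the other 11 raphe libraries. Its Gad1 and Gad2 levels, 348.1 and 376.3 CPM, lay inside the range of the other raphe libraries. Without it the line difference was 0.02 for Gad1 and -0.09 for Gad2.

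An interaction term over the 24 libraries asked whether the line difference was larger in one region, and 0.00668% of the genes passed it. The amygdala difference minus the raphe difference was 0.16 for Gad1 (SE 0.20, 95% interval -0.26 to 0.57) and 0.37 for Gad2 (SE 0.29, 95% interval -0.23 to 0.97). Neither passed (edgeR adjusted p = 0.9999 for both).

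Both genes were lower in the later dorsal raphe libraries. This split was known from earlier results of these data and parts 5 later from 7 earlier libraries, with both lines on each side. Across all genes 48.1% of 14390 passed it, and 23.8% were lower in later libraries. Gad1 ranged from 339.2 to 511.9 CPM in the earlier libraries, with a median of 386.5, and stood at 308.1, 291.2, 417.7, 280.6 and 307.3 CPM in the later ones. Only high-responder replicate 6, at 417.7 CPM, lay within the earlier range. Gad2 ranged from 365.4 to 601.7 CPM in the earlier libraries, with a median of 477.1, and stood at 293.3, 283.6, 387.2, 258.8 and 340.8 CPM in the later ones. Again high-responder replicate 6, at 387.2 CPM, was the one later library inside the earlier range.

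Gad2 fell by 0.62 on the log2 scale in later libraries (SE 0.14, edgeR adjusted p = 0.0042), and 15.7% of all genes had a larger difference. Gad1 fell by 0.32 (SE 0.12, edgeR adjusted p = 0.0463), a size exceeded by 42.1% of genes. With 23.8% of all genes lower, a call in this direction is common. The Gad2 call held without any one library. The Gad1 call ended without any one of high-responder replicates 2, 3, 4 and 5 or low-responder replicates 1, 3, 5 and 6, with an edgeR adjusted p between 0.0529 and 0.124 in these 8 fits and a log2 fold change between -0.33 and -0.25. With library size alone as the scaling, 4110 genes were lower and 2550 higher, against 3428 and 3491 with TMM, and the differences were -0.39 for Gad1 and -0.69 for Gad2. The 10 most counted IDs took 9.25% to 15.0% of the counts in the later and 7.59% to 10.2% in the earlier raphe libraries, and the part of this in the differences was not tested. The labels give no date or run that would say what the library numbers stand for.

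The same split in the amygdala, 4 later against 8 earlier libraries, gave -0.18 for Gad1 (SE 0.13) and -0.21 for Gad2 (SE 0.18), both with an edgeR adjusted p of 0.969. There edgeR called 0% of 14265 genes, while 545 had an unadjusted p under 0.05, and DESeq2 and limma voom called 2 each. Whether the later-to-earlier difference itself differed between the regions was not tested.

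The balance of the 2 genes within a library separated the regions better than either level. The ratio of Gad1 to Gad2 counts needs no scaling between libraries. Its absolute size depends on transcript lengths, so only its differences between libraries are read here. In the amygdala the ratio ranged from 0.915 to 1.36, with a median of 1.15 and a mean of 1.15 ± 0.145 (SD, n = 12). In the dorsal raphe it ranged from 0.727 to 1.08, with a median of 0.913 and a mean of 0.915 ± 0.129 (SD, n = 12). The ratio of 8 amygdala libraries lay above every raphe library, and that of 6 raphe libraries below every amygdala library. On the log2 scale the ratio was higher in amygdala by 0.34, or 1.26-fold (two-sided permutation p = 0.00056, 0.00224 adjusted over the 4 ratio tests, n = 12 per region). Counting error of a single log2 ratio was at most about 0.04. Ratios of other gene pairs were not examined, so how common such a shift is was not tested. Of single genes 65.8% passed between the regions, with a median absolute log2 fold change of 0.36 over all genes tested.

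Within the earlier libraries the regions did not overlap in the ratio, which was 0.964 to 1.36 in 8 amygdala libraries and 0.727 to 0.952 in 7 raphe libraries. The log2 difference was 0.45 (two-sided exact permutation p = 0.000311). In the later libraries it was 0.18 and did not pass (exact p = 0.151), with 4 amygdala libraries from 0.915 to 1.34 and 5 raphe libraries from 0.902 to 1.08. When libraries were rearranged only within line and within earlier or later, an alternative added after seeing the data, the permutation p of the pooled difference was 0.000388.

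**Figure D3:**
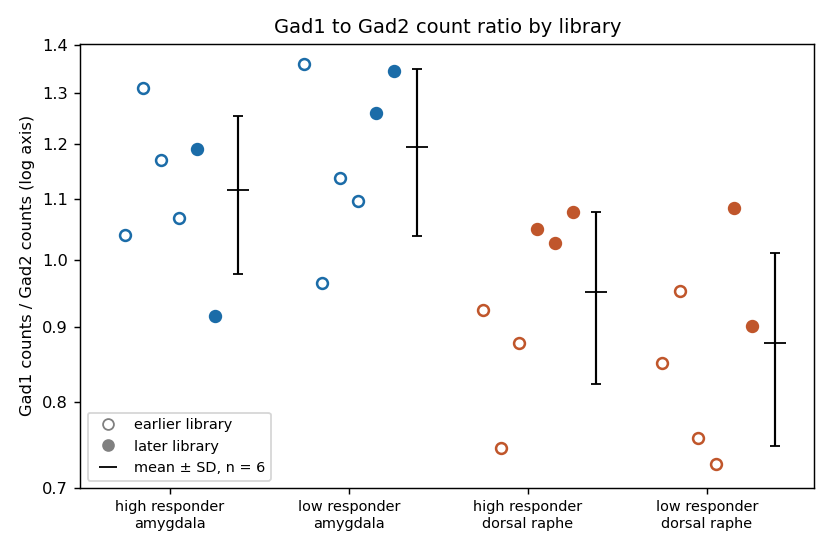
Ratio of Gad1 to Gad2 counts in each library on a log axis, by line and region, with mean and SD of 6 libraries. Open circles are earlier and filled circles later libraries. Amygdala libraries span 0.915 to 1.36 and dorsal raphe libraries 0.727 to 1.08.

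The ratio also moved with library number in the raphe. It was 1.03 ± 0.0745 in the 5 later and 0.833 ± 0.0913 in the 7 earlier libraries, a log2 difference of 0.31 (two-sided exact permutation within lines, p = 0.00667, 0.0133 adjusted over the 4 tests). Of the 5 later libraries 4 lay above all earlier ones. Without high-responder replicate 6 the difference was 0.29 and the adjusted exact p 0.0533. The split was known beforehand and 48.1% of single genes passed it, with a median absolute log2 fold change of 0.26 over all genes tested. Whether other gene pairs shift as much was not tested. In the amygdala the later and earlier means of the ratio were 1.18 ± 0.186 (n = 4) and 1.14 ± 0.134 (n = 8). Between the lines the log2 difference of the ratio was -0.10 in amygdala (exact two-sided p = 0.385 over all splits of 6 against 6). In the dorsal raphe it was 0.12 (exact two-sided p = 0.368).

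Gad1 and Gad2 followed each other from library to library. After removal of the line means, log2 CPM of the 2 genes correlated in the amygdala with Pearson's r of 0.88 (permutation p = 0.00015) and Spearman's rho of 0.87 (p = 0.00086, n = 12). In the dorsal raphe r was 0.90 (permutation p = 0.00014) and rho 0.88 (p = 0.0004, n = 12). Adjusted over these 2 relations the p of both r values was 0.00015. Without the 2 libraries farthest from the median of Gad1 the amygdala r was 0.65 (permutation p = 0.0409) and rho 0.48 (p = 0.167, n = 10). Those libraries were low-responder replicate 3 and high-responder replicate 2. Leaving out the extremes of Gad1 also narrows its range, and the part of this in the lower rho was not tested. With only the first or only the second left out, rho was 0.72 and 0.73 (permutation p = 0.0161 and 0.0144, n = 11). In the raphe, leaving out the 2 libraries farthest from the median of Gad1 gave r of 0.87 and rho of 0.85 (permutation p = 0.00181 and 0.00313, n = 10). With deviations taken within earlier and within later libraries r was 0.89 in amygdala and 0.84 in raphe.

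**Figure D4:**
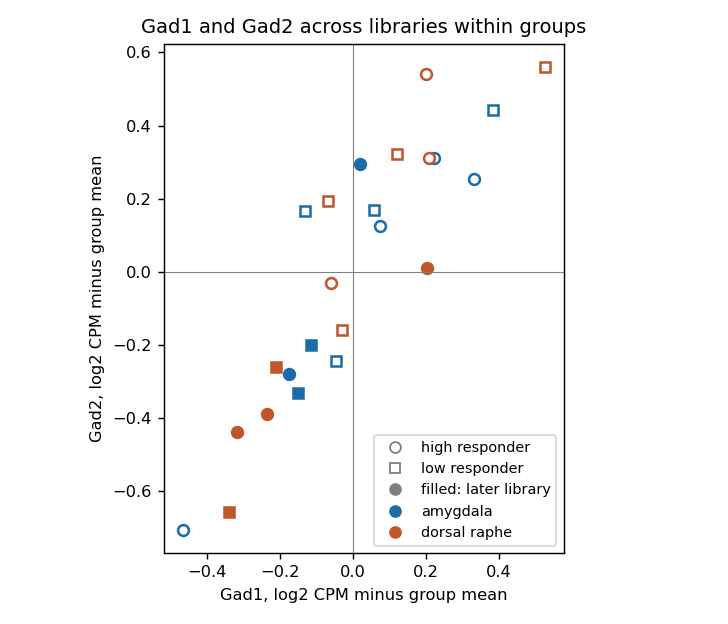
Gad1 against Gad2 in 24 libraries, each as log2 CPM minus the mean of its line and region. Circles are high and squares low responders, blue is amygdala, orange dorsal raphe, and filled symbols are later libraries. The points rise together, with r of 0.88 in amygdala and 0.90 in dorsal raphe.

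Gad2 was among the genes most like Gad1 in pattern, and its rank depended on how likeness was measured. The main measure was taken as Pearson's r of deviations from the 4 group means over 24 libraries, for 14244 genes with a mean of at least 1 CPM, and is a description, since the points share libraries and depth. Gad2 ranked first among the other genes for Gad1, with r of 0.89 (jackknife SE over libraries 0.05). Gad1 ranked 41st for Gad2. ENSRNOG00000015393 came next to Gad2 for Gad1 (r of 0.88) and first for Gad2 (0.93). ENSRNOG00000020518 ran most opposite to Gad1 (-0.88), and ENSRNOG00000001750 to Gad2 (-0.93). With Spearman's rho Gad2 ranked 2nd for Gad1 and Gad1 35th for Gad2. With deviations within earlier and later libraries the ranks were 4th and 29th, and with no centring 36th and 259th. Within the amygdala alone they were 80th and 194th, and within the dorsal raphe alone 13th and 1262nd.

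The number of genes with r above 0.9 was counted for each gene, as a description with no test. In the dorsal raphe, over 12 libraries, 1201 genes exceeded 0.9 with Gad2 and 12 with Gad1. These deviations from the line means keep the split into earlier and later libraries, which 48.1% of genes passed and along which Gad2 fell by 0.62 and Gad1 by 0.32. In the amygdala 122 genes exceeded 0.9 with Gad2 and 37 with Gad1. The median r over all genes lay between -0.08 and 0.04 in these 4 lists. Over the 24 libraries 23 genes exceeded 0.9 with Gad2 and 0 with Gad1, and with deviations within earlier and later libraries 8 and 0 did.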

How the data were processed

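Raw counts of reads per gene were deposited by the authors as whole numbers, 1 table per library. The tools STAR and Trim Galore and the build rn6 are named, without roles, per the submitters' processing notes. The counting program, versions, annotation and strand setting are not given in the sources used here, so reads shared with overlapping or antisense genes cannot be told apart. Per the labels' protocols, RNA came from a Qiagen miRNeasy kit and went into poly-A libraries. All tables listed the same 32662 IDs in 1 order, with 0 rows that name no gene. At least 1 count in any library was present for 24750 IDs.

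The tables do not pair IDs with symbols, and 0 of them matched the RefSeq gene table. The names Gad1 and Gad2 come from the rule that chose the members. Lists of other GABA pathway genes and of cell type markers were therefore not applied, and the labelled regions were not checked against markers. The members, lists and splits were chosen with earlier results of these data known. The rule for named genes was Gad1 and Gad2, list members by size of change, and the genes most like each in pattern, limited to 2 IDs each way without symbols.

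Nothing in the labels states that each library is its own animal. A p-value therefore reflects only how far these libraries scatter, and that scatter may be technical. The closest pair of libraries in a group differed by a chi-square per degree of freedom of 3.46, so none was treated as a duplicate. Groups came from the line and region in the titles. Later libraries are those after the first break in the library numbers of a group (2 per line in amygdala, 3 high-responder and 2 low-responder in dorsal raphe).

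Counts were tested with edgeR 4.0.16 (glmQLFit, glmQLFTest, filterByExpr, TMM) in R 4.3.3, with the p-value adjusted over all genes tested. Line and later-to-earlier comparisons used the 12 libraries of a region, the latter with a line term. Comparisons of region used all 24. The SE is the log2 fold change over the root of F. Ratios had 0.5 added to both counts and were tested by exact permutation, or with 100000 resamples for 12 against 12. Correlations used log2 CPM with a prior count of 2. On simulated counts, a 1.5-fold change was recovered for 83.1% of changed genes between regions (14813 genes), 62.7% between lines in amygdala (14163) and 29.9% in dorsal raphe (14259). The changed genes were drawn at random, whereas Gad1 and Gad2 varied more than 80.7% and 94.6% of genes near their level. Planted changes also outnumbered the 3 and 9 genes called between the real lines, which eases the adjusted threshold. These shares are therefore not the recovery for these 2 genes. Alternatives were RLE, library size only, other filters, DESeq2 1.42.0, limma 3.58.1 voom, later libraries as a term or apart, a replicate block and each library left out. Deviations from group means were correlated across genes to see whether same-numbered libraries pair. Between lines r was uneven, from -0.37 to 0.62 in amygdala and from -0.56 to 0.69 in dorsal raphe. Its mean was 0.045 and 0.125, against -0.008 and -0.015 for other numbers. Between regions the mean for the same number was -0.083 in high and -0.015 in low responders. The 95% intervals come from the SE of the edgeR fits, which takes in the scatter between libraries. Counting SDs cover counting error alone, and reads carry no molecular identifiers.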

Additional observations from a re-analysis of the deposited data

Results flagged for a closer look

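Of 12 groups of 6 values examined (Gad1 level, Gad2 level and their ratio in 4 groups), 1 held a library far from the other 5, and chance alone flags about 1 group in 20. In low-responder amygdala replicate 3, the Gad1 level was 495.6 CPM, and the next highest library of the group had 395.4 CPM. The 10 most counted IDs took 1.99% of the counts of this library. The part of that low share in the Gad1 value was not tested. Without this library the line difference of Gad1 in amygdala was 0.26 (edgeR adjusted p = 0.385), against 0.17 with it. Without high-responder amygdala replicate 3 it was 0.10 (0.853), and with any 1 library left out it lay between 0.10 and 0.26.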

How the results depend on the processing

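Of the alternative values, 521 kept their direction and their side of the threshold, 10 lost a call and 6 gained one. Another 25 changed sign, none of these called before or after, and 1 correlation, not tested, moved by more than its jackknife SE. All differences are log2 values, and the cause was not tested for any change. Between lines in dorsal raphe, Gad1 was -0.0065 in earlier libraries, and Gad2 was 0.0054 with a term for later libraries and 0.10 in later libraries. Between regions in high responders, Gad2 was 0.00060 with RLE and 0.00060 with DESeq2, 0.30 in later libraries and 0.0065 with a replicate block. The replicate block, taken from numbers that paired the libraries unevenly, changed no call. With it the Gad1 line difference in amygdala was 0.16 with an SE of 0.075, against an SE of 0.127 without it. Between regions in low responders, Gad1 was -0.083 with limma voom and -0.00043 without the amygdala libraries numbered 3, and Gad2 passed with voom (-0.63) and with the term for later libraries (-0.49). Over both lines Gad2 passed with voom (-0.36) and with that term (-0.35), and was 0.070 in later libraries. Between regions, a value from the fit with that term is the one of the earlier libraries. The ratio differed by 0.014 between lines in earlier amygdala libraries and by 0.18 between regions in later libraries, where it did not pass. The correlation of the 2 genes over 24 libraries was 0.75 with no centring.

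With 1 library left out at a time, the dorsal raphe line difference ran from -0.046 to 0.13 for Gad1 and from -0.23 to 0.018 for Gad2. The region difference ran from 0.12 to 0.22 for Gad1, from -0.078 to 0.12 for Gad2 in high responders, from -0.0060 to 0.21 for Gad1 in low responders and from -0.48 to -0.25 for Gad2 in low responders. The later-to-earlier difference in dorsal raphe ran from -0.41 to -0.25 for Gad1 and from 0.28 to 0.35 for the ratio. None of the following passed in any such fit. The line by region term ran from 0.030 to 0.24 for Gad1 and from 0.25 to 0.50 for Gad2, and the Gad2 region difference from -0.24 to -0.13. The later-to-earlier difference of Gad2 in amygdala ran from -0.38 to -0.14. The ratio between lines ran from -0.16 to -0.041 in amygdala and from 0.063 to 0.18 in dorsal raphe. Between lines in amygdala edgeR called 3 genes, DESeq2 30 higher and 52 lower and voom 99 higher and 147 lower. In dorsal raphe edgeR called 9, DESeq2 12 higher and 27 lower and voom 11 higher and 15 lower. Neither Gad1 nor Gad2 was among the line calls of these tools. The planned lists of GABA pathway genes and cell type markers were not run, since no table used here pairs the IDs with symbols. Libraries of at least 9232983 counts leave a counting SD of 0.02 in log2 level, against 0.26 for Gad1 and 0.39 for Gad2 between libraries of a group.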
